A study of Homo sapiens with 51 samples.

Results

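The 9 genes described here encode classical cadherins, the calcium-dependent proteins that hold neighbouring cells together at adherens junctions: CDH1 (E-cadherin), CDH2 (N-cadherin), CDH3 (P-cadherin) and CDH4 (R-cadherin) of type I, and CDH5 (VE-cadherin), CDH6 (K-cadherin), CDH8, CDH10 and CDH11 (OB-cadherin) of type II. They were chosen by name and found through their Ensembl identifiers among the 58051 gene rows of the count table, and all 9 were among the 19603 genes that passed the filter on low counts. The counts come from the established line H1, which derives from a human embryo and is pluripotent, grown on growth factor-reduced Matrigel. Untreated cells were kept in mTeSR1 and collected at 0 h, and treated cells were moved to TeSR E5 with insulin, FGF2 and the compound that the labels spell LY29004, to which either Activin A at 100 ng/mL with BMP4 at 10 ng/mL, or BMP4 alone at 50 ng/mL, was added. Both treatments were sampled at 1, 6, 12, 24, 36, 48, 72 and 96 h, which with the untreated cells gives 17 groups of 3 libraries each and 51 libraries in all. The treatments differ in the Activin and also in the dose of BMP4, and the untreated cells differ from both in medium too, so these parts of a difference cannot be told apart. The labels number the repeats but name no separate cultures, and p-values then measure only the spread between these samples, which may be technical.

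Classical cadherins bind their own kind on the next cell with their outer domains. Inside the cell they hold p120-catenin and β-catenin, and β-catenin links them to α-catenin and the actin skeleton. E-cadherin is typical of epithelia and of the pluripotent epiblast, and N-cadherin of mesoderm, of neural tissue and of cells that have left an epithelium. The exchange of the former for the latter is known as the cadherin switch, and in the embryo it accompanies the passage of epiblast cells through the primitive streak. Type II cadherins share the same plan but bind through a different interface. They are known mainly from nervous tissue, kidney, mesenchyme and, for VE-cadherin, the junctions between endothelial cells.

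In GRCh38 coordinates of GENCODE release 29, 5 of the 9 genes lie on chromosome 16. CDH8 spans 61647242 to 62037035 on the minus strand, CDH11 64943753 to 65126112 on the minus strand, CDH5 66366622 to 66404786 on the plus strand, CDH3 68636189 to 68722616 on the plus strand and CDH1 68737225 to 68835548 on the plus strand. CDH3 and CDH1 are next to each other, in the same direction, with 14608 bases between them. CDH10 (24487100 to 24644978, minus strand) and CDH6 (31193750 to 31329146, plus strand) are on chromosome 5, CDH2 is on chromosome 18 (27950966 to 28177446, minus strand) and CDH4 on chromosome 20 (61252426 to 61940617, plus strand). Counts were made over whole genes, so no exon or isoform could be told apart. The antisense gene AC126773.2 shares 694 exon bases with CDH3 and had 807 counts over all libraries against 224347 for CDH3, and the pseudogene DUX4L51 shares 1109 exon bases with CDH6 and had 113 counts against 34048. The other genes with shared exon bases held at most 40 counts each over all libraries.

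Promoter sequence from RefSeq (GRCh38.p14) was at hand for 4 of the 9 members, CDH2, CDH4, CDH8 and CDH10, with 7 start sites. Those of CDH2 and CDH10 are shown because these are the members with an entry that differed most often between the treatments. Capitals mark matches to CANNTG, the E-box core bound by the SNAI, ZEB and TWIST families, searched over the 250 bases before the start site; the motif reads the same on both strands, and its forms CAGGTG and CACCTG are those best known for SNAI and ZEB factors. Over all 35116 promoters of that length, 61.8% held a CANNTG and 17.5% a CAGGTG or CACCTG.
CDH2, first start, chr18:28177131-28177380, minus strand: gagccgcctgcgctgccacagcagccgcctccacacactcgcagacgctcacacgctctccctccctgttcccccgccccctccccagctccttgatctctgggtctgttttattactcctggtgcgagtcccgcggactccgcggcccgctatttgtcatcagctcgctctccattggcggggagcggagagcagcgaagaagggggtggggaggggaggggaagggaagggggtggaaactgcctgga
CDH2, second start, chr18:28036642-28036891, minus strand: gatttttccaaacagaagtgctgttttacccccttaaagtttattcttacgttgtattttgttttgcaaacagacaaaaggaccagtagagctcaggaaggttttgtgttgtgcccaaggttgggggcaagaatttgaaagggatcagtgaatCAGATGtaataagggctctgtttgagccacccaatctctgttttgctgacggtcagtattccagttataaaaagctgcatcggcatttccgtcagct
CDH10, chr5:24644979-24645228, minus strand: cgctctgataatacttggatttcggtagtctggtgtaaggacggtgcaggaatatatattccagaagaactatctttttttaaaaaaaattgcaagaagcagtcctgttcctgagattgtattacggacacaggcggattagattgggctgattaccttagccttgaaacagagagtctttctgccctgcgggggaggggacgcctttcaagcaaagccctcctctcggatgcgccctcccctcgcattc
The first CDH2 window is rich in G and C (66.0%) and holds no CANNTG. The second start lies 140489 bases further on, inside the gene, and its window has 42.0% G and C and 1 match, CAGATG, beginning 97 bases before the start. The CDH10 window has 47.6% G and C and no match. CDH4 was the only one of these 4 genes with a CAGGTG, beginning 16 bases before the first of its starts at hand, 61499421. That start lies inside the gene, whose span begins at 61252426. The count table does not tell which start was used.

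Library totals ran from 22.8 M to 30.4 M (M, 1e6 counts) with a median of 24.9 M. Levels are given as CPM, the count relative to the library total after scaling by TMM (trimmed mean of M values), with mean ± SD over the 3 libraries of a group. Replicate 2 of Activin+BMP4 at 48 h, replicate 3 of Activin+BMP4 at 96 h and replicate 1 of BMP4 at 12 h stood apart from the other 2 libraries of their group in a comparison of their counts over genes, and without these 3 libraries the same number of members was called between the treatments at 12 h, 48 h and 96 h. As a check of the labelled cell type, the 8 embryonic stem cell markers summed to 8951 to 9185 CPM in the untreated libraries, with none of them at 0. In bulk RNA a lower level from fewer cells of a type cannot be told apart from less RNA of the gene per cell. A gene was called in a comparison when its Benjamini-Hochberg adjusted p from edgeR's quasi-likelihood test was under 0.05 and its level differed at least 2-fold, a log2 fold change of 1 in either direction.

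Per kilobase of exon, which allows levels of different genes to be set side by side, the untreated cells held mainly 3 cadherins. CDH1 made up 52.8% ± 0.213 of the summed per-length level of the 9 genes, CDH3 22.6% ± 0.340 and CDH2 21.3% ± 0.410, and all 5 type II genes together 1.53% ± 0.0845 (SD, n = 3). By 96 h of Activin+BMP4 CDH2 held 70.3% ± 6.05 and CDH1 17.8% ± 3.75, while the type II genes held 1.13% ± 0.129. After BMP4 alone CDH1 held 68.5% ± 0.168 at 48 h and 35.4% ± 0.867 at 96 h, when CDH2 held 24.4% ± 0.281. The type II share was then 21.0% ± 0.503, of which CDH11 alone was 16.6% ± 1.08. The summed per-length level was 125 ± 0.913 CPM per kb in untreated cells, 235 ± 24.0 after 96 h of Activin+BMP4, and under BMP4 it was 197 ± 5.85 at 72 h and 177 ± 5.27 at 96 h. With the longest coding transcript as the length in place of all exons, an alternative chosen after seeing the data, the CDH11 share at 96 h of BMP4 came to 24.0%.

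**Figure D1:**
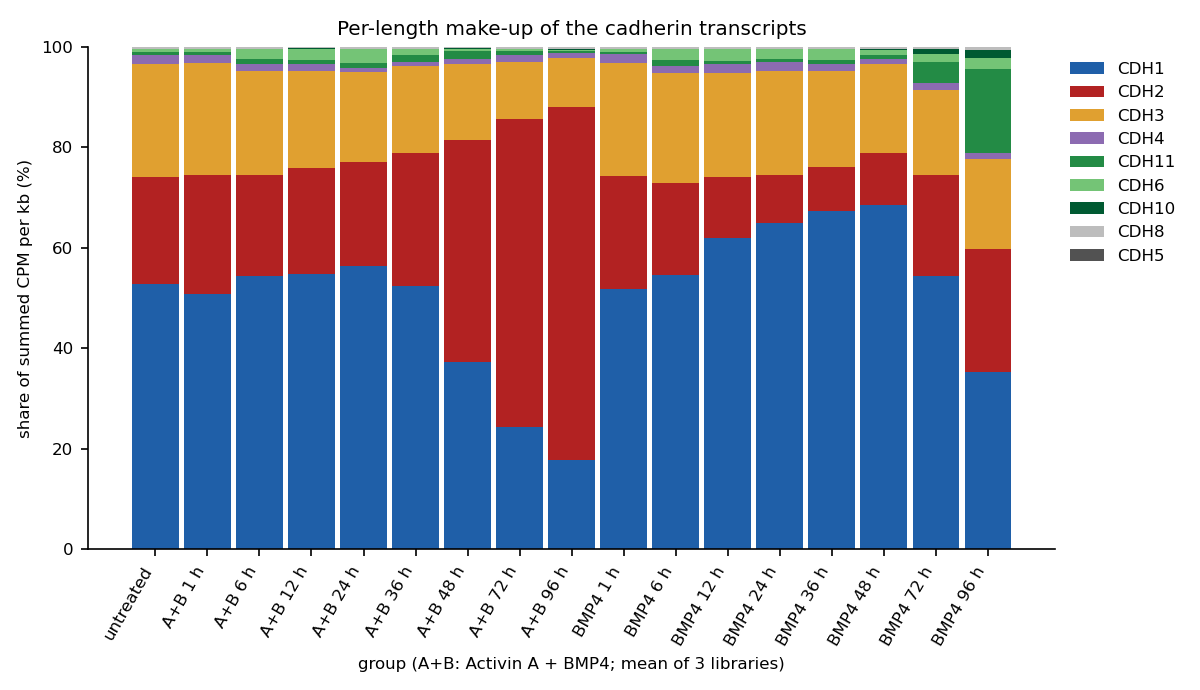
Share of each gene in the summed CPM per kb of the 9 cadherin genes (vertical axis, percent) in the 17 groups (horizontal axis, mean of 3 libraries each). CDH2 is at 70.3% at 96 h of Activin+BMP4, and CDH11 at 16.6% at 96 h of BMP4, where CDH1 is at 35.4%.

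Between the treatments at the same time, none of the 9 members was called at 1 h or 6 h, when 0.0051% and 0.505% of all tested genes were called. DESeq2 also called 0 members at both times, and 1 and 2 members had an unadjusted edgeR p under 0.05. At 12 h 1 member was called (1.42% of all genes), at 24 h 2 (4.01%) and at 36 h 1 (5.58%). At 48 h 4 were called (9.25%), at 72 h 6 (9.63%) and at 96 h 4 (15.6%). The calls were CDH10 at 12 h, CDH2 and CDH10 at 24 h, CDH2 at 36 h, CDH1, CDH2, CDH5 and CDH6 at 48 h, those 4 with CDH10 and CDH11 at 72 h, and CDH2, CDH6, CDH10 and CDH11 at 96 h. CDH2 and CDH5 were lower under BMP4 alone in each of their calls and the other 4 genes were higher in each of theirs. CDH3, CDH4 and CDH8 were not called between the treatments at any time. The median log2 fold change (BMP4 minus Activin+BMP4) of the 9 members was 0.42 at 48 h, 0.57 at 72 h and 0.60 at 96 h, beside a median over all genes within 0.01 of 0 at these times.

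**Figure D2:**
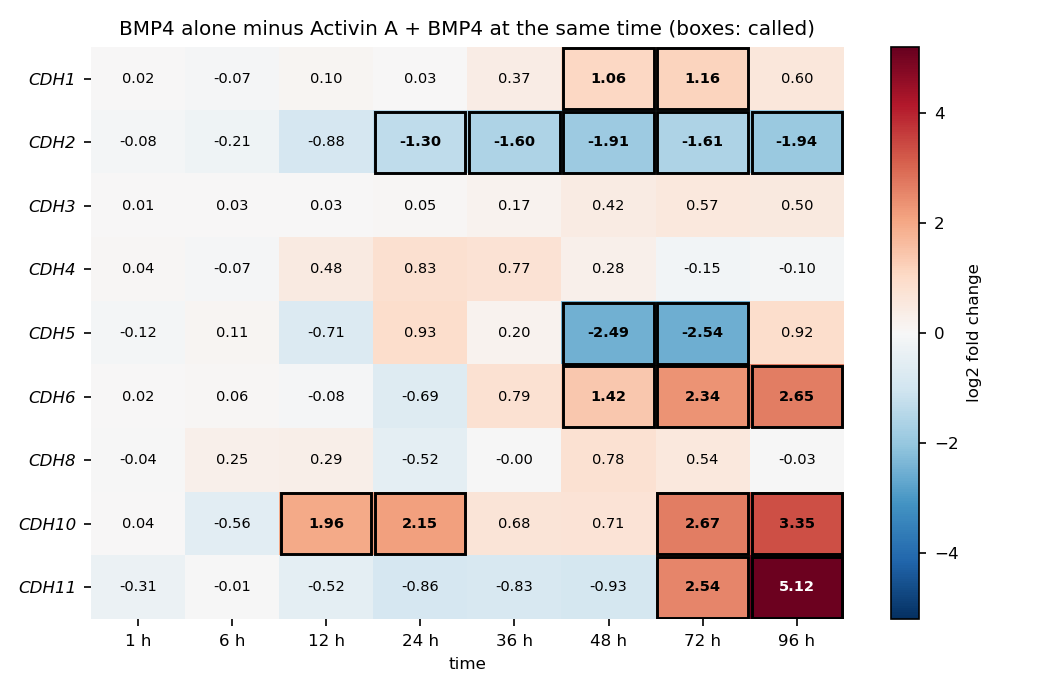
Log2 fold change of BMP4 alone minus Activin A + BMP4 at the same time (number and colour) for each gene (rows) and time (columns), with called values boxed. CDH2 is boxed from 24 h to 96 h with values of -1.30 to -1.94, and CDH11 turns from -0.93 at 48 h to 5.12 at 96 h.

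Against the untreated cells, the same 3 untreated libraries serve all 16 comparisons. Under Activin+BMP4 the number of members called was 0, 2, 1, 2, 2, 3, 3 and 2 in order of the 8 times from 1 h to 96 h. The shares of all genes called were 0.867%, 5.69%, 6.82%, 8.08%, 10.5%, 15.8%, 21% and 26.5%. At 1 h of either treatment 0 members had an unadjusted edgeR p under 0.05. Each of these calls was a higher level, of CDH6 from 6 h to 36 h, CDH11 at 6 h and from 24 h to 72 h, and CDH2 and CDH10 from 48 h on. Under BMP4 the members called were 0, 2, 1, 3, 3, 4, 4 and 3 at the same times, beside 1.21%, 4.99%, 5.62%, 7.21%, 8.41%, 12.2%, 16.9% and 23.2% of all genes. CDH6 was called from 6 h to 96 h, CDH11 at 6 h and from 36 h on, and CDH10 from 24 h on, all higher. The lower calls were CDH2 at 24 h and CDH5 at 48 h and 72 h.

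**Figure D3:**
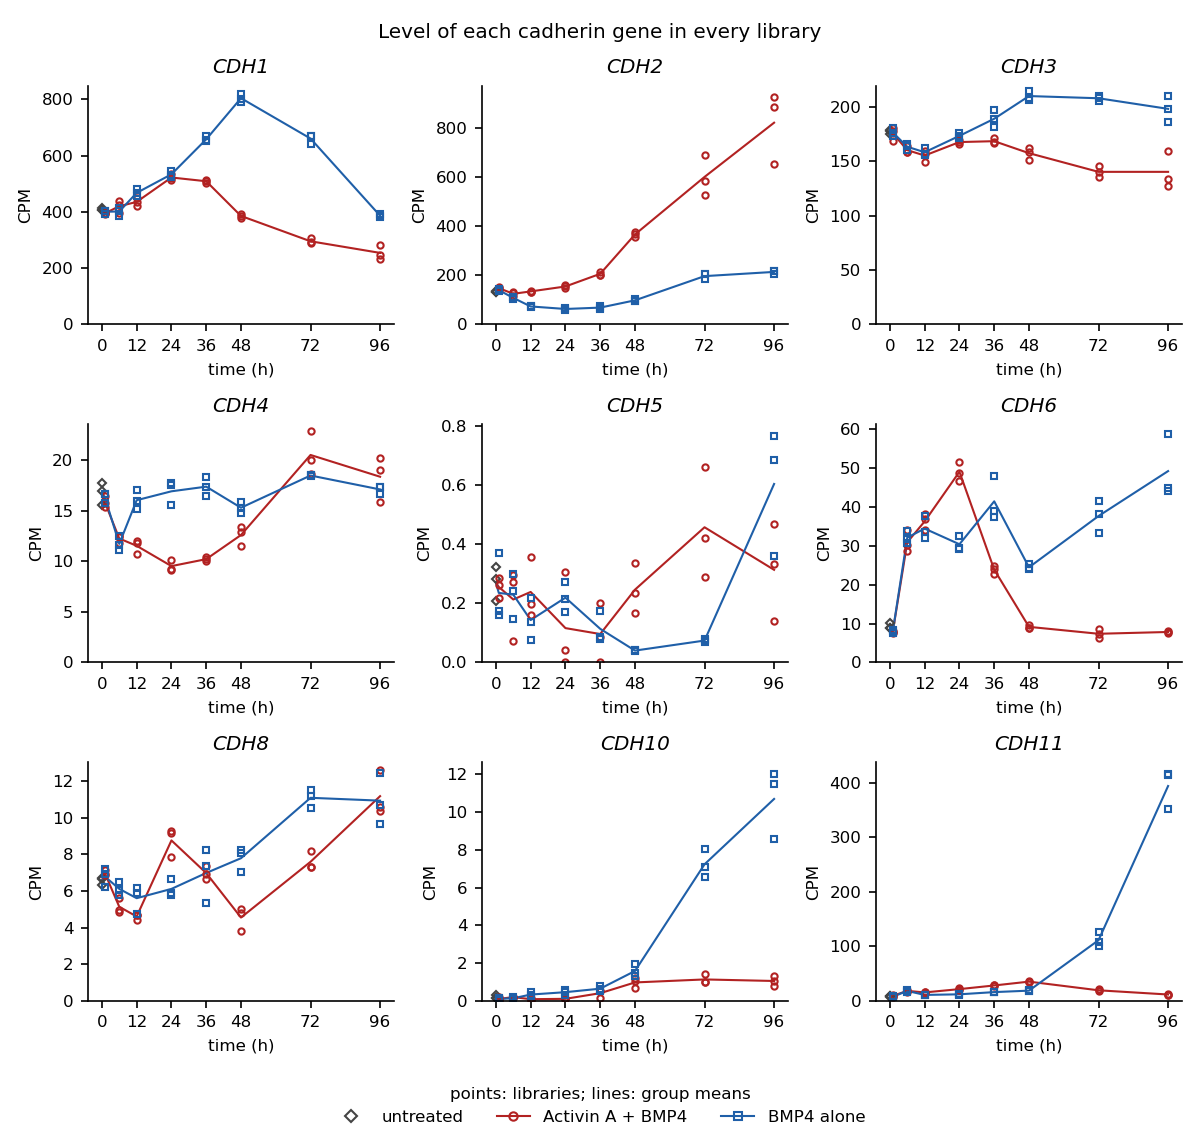
CPM (vertical axis, from 0, scaled per gene) of the 9 cadherin genes in every library against time in h, with lines through the group means and untreated cells at 0 h. CDH1 is highest at 48 h of BMP4 (804 CPM), CDH2 at 96 h of Activin+BMP4 (821 CPM) and CDH11 at 96 h of BMP4 (394 CPM).

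CDH1, the E-cadherin gene, differed little between the treatments up to 24 h and was higher under BMP4 alone after that. The untreated libraries held it at 405, 408 and 414 CPM, and at 24 h the 3 libraries of Activin+BMP4 were at 519, 512 and 536 CPM and those of BMP4 at 525, 532 and 544 CPM. Both treatments thus overlapped at 24 h, above the untreated libraries. At 36 h they did not overlap, with 504, 512 and 511 CPM against 655, 651 and 668 CPM. At 48 h Activin+BMP4 was at 384, 393 and 379 CPM, near the untreated level, and BMP4 at 792, 803 and 818 CPM, its highest group. The difference at 48 h was 1.06 ± 0.0410 in log2 (SE, adjusted p = 2.29e-24). At 72 h the Activin+BMP4 libraries were at 292, 288 and 305 CPM and the BMP4 libraries at 643, 670.3 and 669 CPM, a difference of 1.16 ± 0.0412 (adjusted p = 8.74e-26). By 96 h they were at 231, 247 and 284 CPM against 392, 385 and 382 CPM, still without overlap, but the difference of 0.60 ± 0.0410 in log2 was under the fold threshold (adjusted p = 1.38e-16), as it was without the libraries that stood apart (0.69).

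Against untreated cells no CDH1 value reached 2-fold. The one nearest to it was BMP4 at 48 h with 0.98 ± 0.0409 in log2 (adjusted p = 1.96e-23), and the lowest was Activin+BMP4 at 96 h with -0.69 ± 0.0411 (adjusted p = 1.04e-18). At 96 h of BMP4 CDH1 was at 386 ± 4.75 CPM against 409 ± 4.46 CPM in untreated cells (SD, n = 3), a log2 difference of -0.08 ± 0.0407 (adjusted p = 0.0751). In the order of the 17 group means the libraries of 9 of the 16 neighbouring pairs overlapped. The group at 48 h of BMP4 stood clear above all others and the groups at 96 h and 72 h of Activin+BMP4 stood clear below.

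CDH2, the cadherin gained in the switch, fell under BMP4 alone by 24 h and rose later under Activin+BMP4. The untreated libraries held 129.7, 135 and 132 CPM, and those of BMP4 71.9, 72.5 and 73.5 CPM at 12 h and 59.3, 64.9 and 62.9 CPM at 24 h. The value at 24 h was a called change of -1.08 ± 0.0828 in log2 (adjusted p = 2.47e-14). Under Activin+BMP4 the libraries were at 137, 133 and 131 CPM at 12 h and 155, 148 and 159 CPM at 24 h, so that the treatments differed by -1.30 ± 0.0828 in log2 at 24 h (adjusted p = 1.69e-16). No library of one treatment reached the range of the other at any time from 6 h on.

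From 36 h on the log2 difference of CDH2 between the treatments stayed larger than at 24 h, but it narrowed from 48 h to 72 h. Under Activin+BMP4 the libraries held 202, 202 and 212 CPM at 36 h, 355, 369 and 374 CPM at 48 h, and 690.4, 583 and 527 CPM at 72 h. At 96 h they held 885, 927 and 651 CPM, a called rise of 2.64 ± 0.0808 in log2 over untreated cells (adjusted p = 8.56e-29). The low value of 651 CPM belongs to replicate 3, the library that stood apart in that group, and without the 3 such libraries the rise was 2.78. Under BMP4 CDH2 was at 74.3, 66.6 and 62.8 CPM at 36 h, 94.9, 102 and 95.8 CPM at 48 h, 182, 203 and 203 CPM at 72 h, and 218, 215 and 207 CPM at 96 h. These last values lay above every untreated library, with a log2 difference of 0.69 ± 0.0784 from them that was under the fold threshold (adjusted p = 2.74e-10). Between treatments the difference was -1.91 ± 0.0803 at 48 h, -1.61 ± 0.0777 at 72 h and -1.94 ± 0.0780 at 96 h in log2, the last with adjusted p = 2.41e-24 (-2.09 without the libraries that stood apart).

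The primitive streak markers were higher with Activin+BMP4 than with BMP4 at 48 h, as CDH2 was, but did not follow its later course. The 5 markers summed to 1387 to 1405 CPM at 48 h of Activin+BMP4 and to 337 to 356 CPM at 48 h of BMP4, against 1.81 to 2.10 CPM in untreated cells. With Activin+BMP4 the sum then averaged 907 CPM at 72 h and 579 CPM at 96 h, while CDH2 went on to 600.2 and 821 CPM. The part of these markers' cells in the CDH2 levels was not tested.

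The CDH1 to CDH2 ratio joins both courses in 1 number per library that no library scaling affects. It is a ratio of counts and is not corrected for length (6177 exon bases in CDH1 and 4950 in CDH2). In untreated cells it was 3.12, 3.02 and 3.14. Under Activin+BMP4 it lay between 2.60 and 3.78 in the libraries from 1 h to 24 h (3.36, 3.45 and 3.37 at 24 h), was 2.496, 2.53 and 2.40 at 36 h, and was close to equal counts at 48 h (1.08, 1.07 and 1.01). At 72 h it was 0.423, 0.494 and 0.580, and at 96 h 0.262, 0.266 and 0.436. So in each Activin+BMP4 library from 72 h on CDH2 had more counts than CDH1. At 96 h the highest of these, 0.436, was again replicate 3, and without it the difference between the treatments was 2.78 in place of 2.54 (log2).

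At 1 h the ratio was below each untreated library in both treatments. It was 2.81, 2.60 and 2.63 with Activin+BMP4 and 2.81, 2.82 and 3.01 with BMP4. Under BMP4 it was 3.53, 3.62 and 4.08 at 6 h, above each untreated library. It went further up, to 6.68, 6.43 and 6.20 at 12 h, 8.85, 8.20 and 8.65 at 24 h and 8.81, 9.77 and 10.6 at 36 h. It was 8.34, 7.87 and 8.55 at 48 h, 3.52, 3.30 and 3.30 at 72 h and 1.80, 1.79 and 1.85 at 96 h, below each untreated library but still above 1. The 2 treatments overlapped at 1 h and 6 h and did not overlap at any time from 12 h on. The mean log2 difference between them (BMP4 minus Activin+BMP4) was 0.98, 1.34, 1.97, 2.97, 2.77 and 2.54 in order of the 6 times from 12 h to 96 h, with pooled SDs of 0.0427 to 0.296. An exact two-sided permutation test gave p = 0.1 for each of these 6 times, which is the smallest that 3 against 3 libraries allow, and an adjusted p of 0.133 over the 8 times, so no time could pass 0.05. At 48 h the ratio was 7.83-fold higher under BMP4, and at 96 h 5.81-fold.

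**Figure D4:**
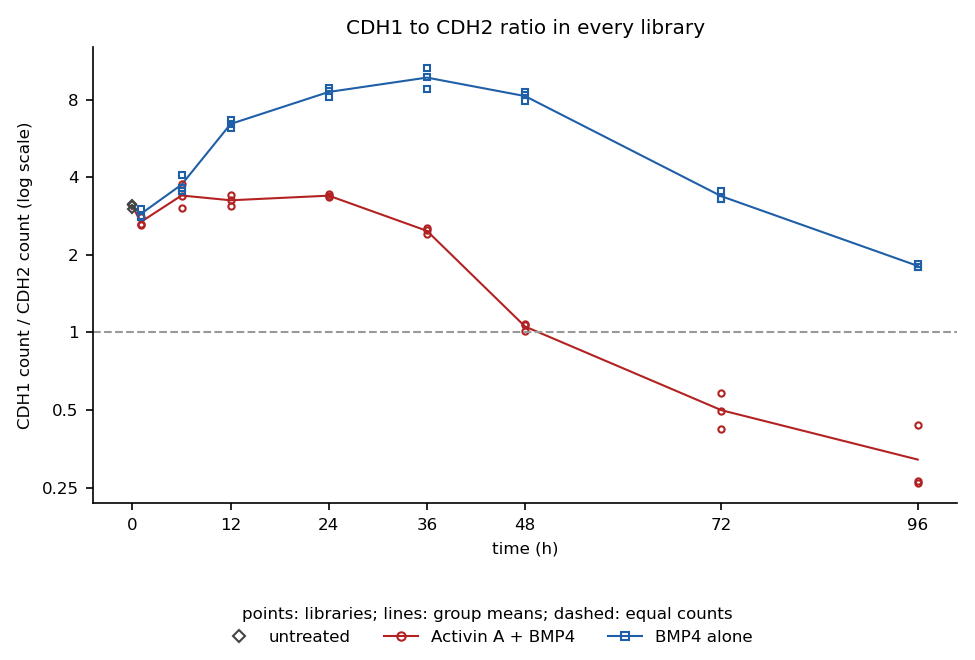
CDH1 count divided by CDH2 count in every library (vertical axis, log scale) against time in h, with lines through the group means and a dashed line at equal counts. The BMP4 libraries lie between 8.81 and 10.6 at 36 h, and the Activin+BMP4 libraries are under the line from 72 h on and end between 0.262 and 0.436.

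CDH3, the neighbour of CDH1 on chromosome 16, had the smallest span among the 9 genes. Its group means ran from 140.2 to 209.9 CPM, a span of 1.497-fold. The untreated libraries were at 179, 175 and 178 CPM. At 48 h Activin+BMP4 was at 159, 162 and 151 CPM and BMP4 at 208, 206 and 215 CPM, and at 96 h 128, 134 and 159 CPM stood against 198, 210.0 and 186 CPM. The treatments did not overlap from 24 h on. The log2 difference was 0.42 ± 0.0457 at 48 h, 0.57 ± 0.0459 at 72 h and 0.50 ± 0.0457 at 96 h (adjusted p = 1.38e-12 at 96 h), each under the fold threshold. Its direction was that of CDH1 at each of these times, and across the 17 group means of log2 CPM Pearson's r between CDH3 and CDH1 was 0.77.

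CDH4, known from retina and brain, was a minor type I gene at 15.5 to 17.8 CPM in untreated libraries. Under Activin+BMP4 it was at 9.16, 10.2 and 9.24 CPM at 24 h and 10.4, 10.2 and 10.0 CPM at 36 h, while BMP4 held it at 15.5, 17.5 and 17.7 CPM and 18.3, 16.5 and 17.4 CPM. The log2 difference between treatments was 0.83 ± 0.0791 at 24 h (adjusted p = 3.10e-11), without overlap but short of 2-fold. At 72 h Activin+BMP4 was at 22.9, 20.0 and 18.7 CPM, its highest group, and at 96 h the treatments overlapped.

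CDH11, the cadherin of osteoblasts and other mesenchyme, had the largest difference between the treatments among the 9 genes. Untreated libraries held it at 7.15, 7.96 and 8.21 CPM. At 6 h both treatments held more, 20.0, 16.3 and 17.7 CPM with Activin+BMP4 and 17.9, 19.0 and 16.7 CPM with BMP4, called at 1.21 ± 0.110 and 1.20 ± 0.109 in log2 over untreated cells. From 12 h to 48 h the Activin+BMP4 libraries were the higher ones, with 34.7, 35.7 and 34.5 CPM at 48 h against 17.6, 19.3 and 18.3 CPM under BMP4. That difference of -0.93 ± 0.0909 in log2 missed the fold threshold (adjusted p = 2.06e-11). At 72 h the order had turned: Activin+BMP4 was at 20.6, 17.4 and 19.1 CPM and BMP4 at 100.3, 107 and 125 CPM. At 96 h Activin+BMP4 was at 9.93, 12.8 and 11.2 CPM and BMP4 at 413, 417 and 351 CPM, a 34.8-fold difference in the means and 5.12 ± 0.0919 in log2 (adjusted p = 7.41e-37). Over untreated cells the rise at 96 h of BMP4 was 5.66 ± 0.0978 in log2 (adjusted p = 1.44e-37).

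The change of CDH11 from 24 h to 96 h differed between the treatments by 5.97 ± 0.136 in log2 (adjusted p = 3.04e-32). CDH6 was the other member called in that test, with 3.34 ± 0.136 (adjusted p = 1.83e-23), so that 2 of 9 members were called beside 13.6% of all genes. The other 7 members were not called there. CDH2 had -0.64 ± 0.112 and CDH1 0.57 ± 0.0577. CDH4 had -0.93 ± 0.107, which became a call at -1.03 without replicate 3 of Activin+BMP4 at 96 h (adjusted p = 2.62e-11).

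The summed level of the mesenchyme markers was higher with CDH11 at 96 h of BMP4. The sum took another course than CDH11 before that and under Activin+BMP4. The 10 markers, of which TWIST1 is also in the list of CDH1 repressors, summed to 5425 to 6718 CPM at 96 h of BMP4, with all 10 above 1 CPM, and to 3302 to 4869 CPM at 96 h of Activin+BMP4, where none was at 0 but 3 were under 1 CPM. Of these, the collagen gene COL3A1 was at 446 ± 23.6 CPM under BMP4 and 0.257 ± 0.163 CPM under Activin+BMP4, and the mesenchyme factor PRRX1 at 27.6 ± 5.62 and 0.0112 ± 0.0193 CPM. At 48 h the mesenchyme sum averaged 3641 CPM under BMP4 and 1708 CPM under Activin+BMP4, the reverse of the order of CDH11. The sum averaged 3565 CPM at 72 h of BMP4, when CDH11 was several times its 48 h level. Under Activin+BMP4 the sum averaged 2642 CPM at 72 h and 4257 CPM at 96 h. There CDH11 went from 35.0 CPM at 48 h to 11.3 CPM at 96 h. Marker by marker, 3 of the 10 were called higher and 3 lower under BMP4 than with Activin+BMP4 at 48 h, beside 9.25% of all genes. The median log2 difference over the 10 was -0.56 at 48 h, the direction of CDH11. It was 0.46 at 72 h and 1.79 at 96 h, again the direction of CDH11. At 96 h 8 were called higher and 0 lower, beside 15.6% of all genes. The 7 amnion-like markers summed to 1450 to 1638 CPM at 96 h of BMP4 and 39.2 to 57.8 CPM at 96 h of Activin+BMP4. Under BMP4 their sum averaged 1528 CPM at 72 h and 1521 CPM at 96 h, while CDH11 went from 111 to 394 CPM. The part of either cell type in the CDH11 level was not tested.

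CDH6, known from the developing kidney and the neural crest, came up early in both treatments and then separated. It was at 8.79, 10.1 and 8.88 CPM in untreated libraries and at 7.61 to 8.30 CPM in the 6 libraries at 1 h. At 6 h it was at 34.0, 28.5 and 30.04 CPM with Activin+BMP4 and 33.7, 31.7 and 30.8 CPM with BMP4, called rises of 1.73 ± 0.105 and 1.79 ± 0.104 in log2. At 24 h Activin+BMP4 was the higher treatment with 51.5, 46.7 and 48.7 CPM against 29.3, 32.6 and 29.2 CPM. By 48 h its libraries were back at the untreated level, 9.75, 8.81 and 8.89 CPM, and at 96 h at 7.63, 7.73 and 8.14 CPM. The BMP4 libraries held 25.2, 23.9 and 24.2 CPM at 48 h and 43.9, 44.9 and 58.6 CPM at 96 h, so no library overlapped at either time. The difference between treatments was 1.42 ± 0.107 at 48 h, 2.34 ± 0.107 at 72 h and 2.65 ± 0.102 at 96 h in log2 (adjusted p = 5.90e-25 at 96 h).

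CDH10, a cadherin known from the brain, was near 0 at first and rose late, more under BMP4 than with Activin+BMP4. The untreated libraries held 4, 7 and 4 counts of it. With Activin+BMP4 it had 35, 31 and 23 counts at 96 h (1.296, 1.04 and 0.800 CPM). With BMP4 it was at 6.57, 7.10 and 8.02 CPM at 72 h and 8.56, 12.0 and 11.5 CPM at 96 h, above each Activin+BMP4 library, with a difference of 3.35 ± 0.249 in log2 at 96 h (adjusted p = 2.50e-15). Its call at 12 h rests on 27 counts in the 3 BMP4 libraries (8, 12 and 7) and 6 in the Activin+BMP4 libraries (1, 4 and 1), a ratio of 4.07 with an exact 95% counting interval of 1.64 to 12.0. That call was lost when replicate 1 or 3 of Activin+BMP4 or replicate 2 of BMP4 was left out (adjusted p from edgeR 0.101 to 0.108), and when only these 2 groups were fitted (0.102). The call over untreated cells at 24 h of BMP4 (1.14 ± 0.445 in log2, adjusted p = 0.0389) was lost with DESeq2 (adjusted p = 0.0546), with no filter on low counts (0.0696), when only these 2 groups were fitted (0.0825) and without replicate 1 or 3 of the untreated cells or replicate 2 or 3 of BMP4 (0.0782 to 0.179 in edgeR).

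CDH8, another neural type II gene, was called in no comparison. Its group means ran from 4.55 CPM at 48 h of Activin+BMP4 to 11.2 CPM at 96 h of the same treatment. At 48 h the treatments did not overlap (3.81, 5.03 and 4.80 CPM against 8.25, 8.06 and 7.06 CPM under BMP4), with a log2 difference of 0.78 ± 0.120 that was short of 2-fold (adjusted p = 8.38e-07). At 96 h both treatments overlapped, with 10.6, 10.4 and 12.6 CPM and 9.68, 10.7 and 12.4 CPM, above the 6.33 to 6.71 CPM of the untreated libraries. The 5 neural markers summed to 691 to 816 CPM at 96 h of BMP4, 508 to 631 CPM at 96 h of Activin+BMP4 and 453 to 492 CPM in untreated cells. None was at 0 in these groups, but 1 was under 1 CPM at 96 h of BMP4 and 2 in each other group. Of 4 tested, 2 were called higher and 2 lower under BMP4 than with Activin+BMP4 at 96 h, beside 15.6% of all genes. Their median log2 difference was -0.19. The part of these markers' cells in the levels of CDH8 and CDH10 was not tested.

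CDH5, the cadherin of endothelial junctions, had at most 20 counts in any library. At 48 h of BMP4 each library held 1 count, against 6, 4 and 9 with Activin+BMP4, a ratio of 6.20 with an exact 95% counting interval of 1.83 to 32.7. At 72 h 2, 2 and 2 counts stood against 15, 7 and 11, a ratio of 6.12 (2.53 to 17.9). These intervals cover counting error only. Both times were called (adjusted p = 0.0106 and 0.00147, edgeR), but without replicate 3 of Activin+BMP4 at 48 h the first was not (adjusted p = 0.0523). At 96 h BMP4 had 20, 19 and 11 counts and the treatments overlapped. At 24 h replicate 3 of Activin+BMP4 held 7 of that group's counts and the others 1 and 0, and without it BMP4 was called higher (adjusted p = 0.0142). Of the 10 endothelial markers, PECAM1, EMCN, CLDN5 and ESAM had group means under 0.5 CPM in all 17 groups, and EMCN was at 0 in the untreated cells and at 48 h of both treatments. The part of endothelial cells in the CDH5 counts was not tested. The list summed to 534 to 555 CPM at 48 h of Activin+BMP4 and 367 to 392 CPM at 48 h of BMP4, most of it KDR (489 and 329 CPM on average), a receptor that mesoderm also carries. The list was highest at 96 h of BMP4, at 778 to 1013 CPM against 227 to 232 CPM with Activin+BMP4, and that was also the highest group of CDH5 (0.604 ± 0.215 CPM against 0.314 ± 0.165 CPM). KDR averaged 850 CPM of it there. Of the 8 endothelial markers tested, 2 were called higher and 2 lower under BMP4 at 96 h, beside 15.6% of all genes. Their median log2 difference was -0.23, the reverse of the order of the sum. At 72 h the list summed to 374 to 413 CPM under BMP4 and 353 to 418 CPM with Activin+BMP4, when CDH5 was called lower under BMP4. The 5 blood markers summed to 15.5 to 20.3 CPM at 96 h of BMP4 and 8.04 to 9.47 CPM at 96 h of Activin+BMP4. None was at 0 in either group, but 4 were under 1 CPM with BMP4 and 3 with Activin+BMP4. Of the 2 that passed the filter, 1 was called higher and 1 lower under BMP4 at 96 h, beside 15.6% of all genes.

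Across the 17 group means of log2 CPM, the pairs of members with the highest Pearson r were CDH10 with CDH11 (0.87) and CDH1 with CDH3 (0.77), and the lowest were CDH1 with CDH5 (-0.77, on few CDH5 counts) and CDH1 with CDH2 (-0.69). The groups share their time course and medium, so these values are descriptions. Among 3881 genes (3882 for CDH3) with at least 10 CPM in the highest group and a range of at least 1 log2 unit, the 3 most like CDH1 were GRHL2 (r = 0.91), MOB3B (0.90) and STAP2 (0.90). For CDH2 they were LIX1L (0.97), EPB41L2 (0.96) and MATN3 (0.96), and for CDH11 PYGO1 (0.97), PCDH19 (0.95) and SLITRK6 (0.94). CDH10 was most like SVEP1 (0.98), PSTPIP2 (0.98) and IGSF3 (0.97), and CDH6 most like HEY1 (0.85), ACADL (0.83) and JAKMIP2 (0.82). For CDH3 the genes were SCUBE3 (0.93), NRK (0.93) and SLC7A2 (0.92), for CDH4 CDK18 (0.87), CDC25B (0.87) and GPC1 (0.84), and for CDH8 PCDHGB6 (0.86), TENT5A (0.85) and TRAPPC9 (0.81).

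Among the known repressors of CDH1, SNAI1, SNAI2 and ZEB2 were called in opposite directions at 48 h and 96 h. At 48 h 5 of the 9 tested (SNAI1, SNAI2, ZEB1, ZEB2 and TWIST2) were lower under BMP4 and none higher, with a list median of -1.16 in log2 beside -0.00411 over all genes, of which 9.25% were called. At 72 h 2 were higher and 1 lower, with a median of 0.18, beside 9.63% of all genes called. CDH1 was then 1.16 higher under BMP4 in log2. At 96 h 5 were higher (SNAI1, SNAI2, ZEB2, TWIST1 and TCF4) and KLF8 was lower, with a median of 1.06, beside 15.6% of all genes called. TWIST1, TWIST2 and TCF4 are named here after their values were seen. SNAI1, a zinc finger factor that binds E-boxes of the CDH1 promoter, was at 24.3 ± 1.05 CPM at 48 h of Activin+BMP4 and 7.62 ± 0.467 CPM at 48 h of BMP4, and at 96 h at 9.58 ± 1.55 against 28.6 ± 2.48 CPM. The log2 differences were -1.67 ± 0.103 and 1.58 ± 0.0989 (adjusted p = 1.04e-17 at 96 h). SNAI2, its relative, was at 3.60 ± 0.0907 CPM at 48 h of Activin+BMP4, its highest group in that treatment, and under BMP4 went from 1.61 ± 0.184 CPM at 48 h to 29.3 ± 3.11 at 72 h and 76.0 ± 6.44 at 96 h.

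ZEB2 showed the same turn, with 11.2 ± 0.741 against 2.39 ± 0.639 CPM at 48 h and 4.56 ± 1.53 against 70.2 ± 6.69 CPM at 96 h (Activin+BMP4 first, log2 difference 3.95 ± 0.228 at 96 h, adjusted p = 6.57e-19). Of the times 48 h and 96 h, ZEB1 was called at 48 h, at 2.62 ± 0.184 against 0.324 ± 0.185 CPM, and overlapped at 96 h with 6.53 ± 1.05 and 7.96 ± 1.02 CPM (adjusted p = 0.229). KLF8 had its highest level in the group where CDH2 had its own, at 155 ± 15.5 CPM at 96 h of Activin+BMP4 against 26.3 ± 0.815 CPM under BMP4. At 96 h of BMP4, where SNAI1, SNAI2 and ZEB2 were highest or near it, CDH1 was at 386 CPM, close to its untreated level. That was down from 804 CPM at 48 h and 661 CPM at 72 h of BMP4. The part of these repressors in the CDH1 level was not tested.

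Factors of the epithelial state were higher under BMP4 at 48 h for 4 of 8 tested and lower for none, with a list median of 0.96 in log2 (9.25% and -0.00411 over all genes). GRHL2, a grainyhead factor that acts on the CDH1 gene, was at 104 ± 2.88 against 43.6 ± 1.10 CPM, GRHL3 at 36.9 ± 0.434 against 3.78 ± 0.385 CPM, GRHL1 at 23.6 against 4.32 CPM and the adhesion protein gene EPCAM at 323 against 152 CPM (means). At 96 h GRHL1 and GRHL3 were called higher and OVOL1, named after its values were seen, lower, beside 15.6% of all genes, and the list median was -0.19 against 0.00488 over all genes. ESRP1, a splicing factor of epithelia, was called at neither time. It was at 247 against 207 CPM at 48 h (log2 difference 0.25 ± 0.0309) and 122 against 182 CPM at 96 h (-0.57 ± 0.0315).

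**Figure D5:**
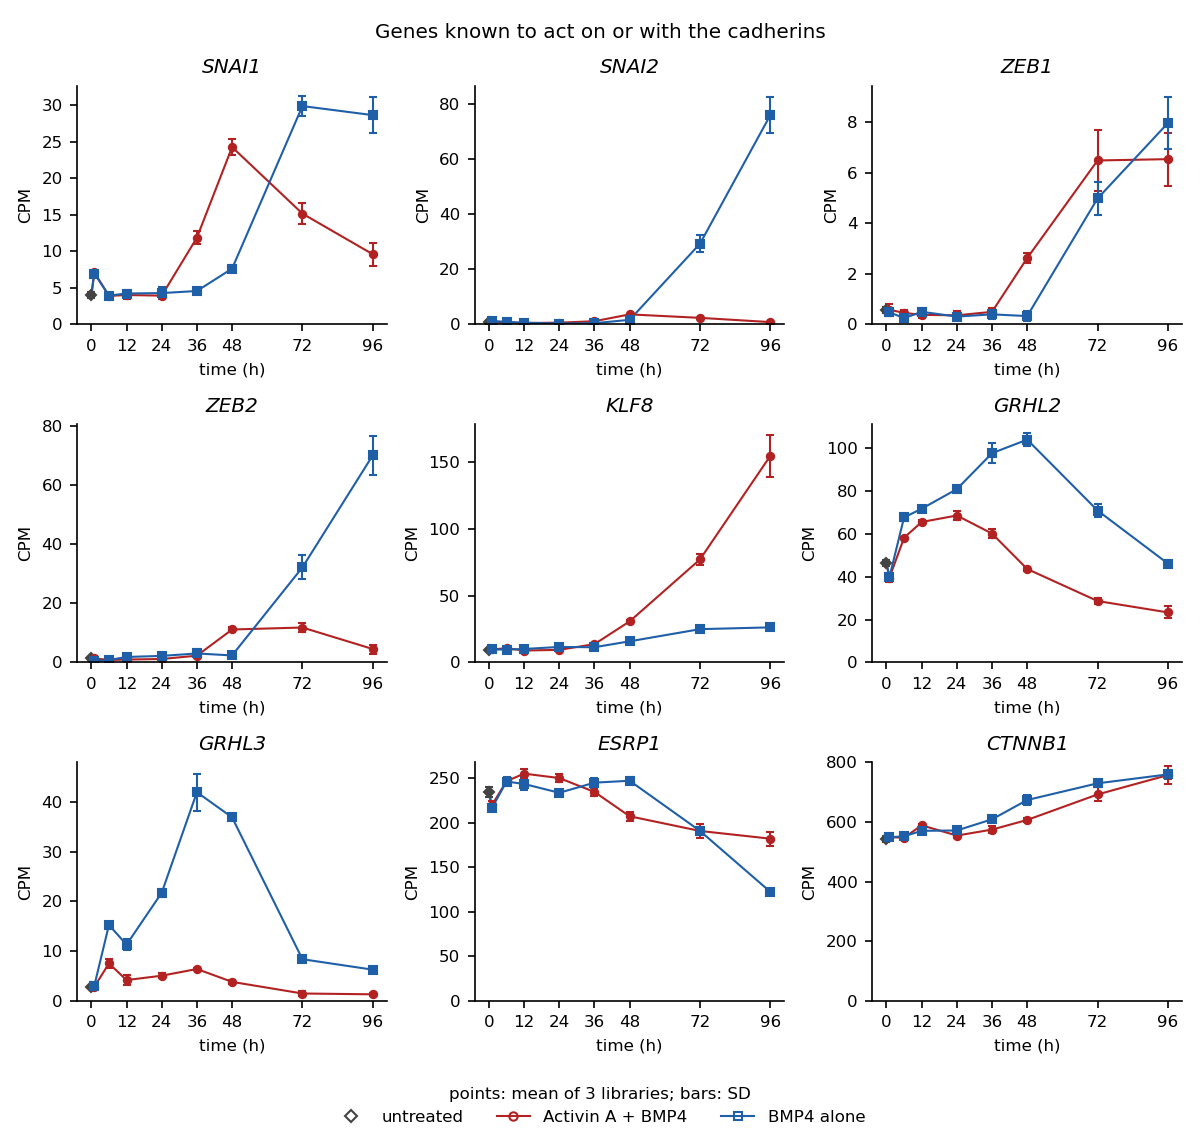
CPM (mean and SD of 3 libraries, vertical axis from 0, scaled per gene) of 5 repressors of CDH1, 3 epithelial factors and β-catenin (CTNNB1) against time in h. SNAI1 is highest at 48 h within Activin+BMP4 (24.3 CPM) and at 72 h within BMP4 (29.9 CPM), and KLF8 is at 155 CPM at 96 h of Activin+BMP4.

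The partners of cadherins inside the cell and other junction genes are read here against 9.25% of all genes called at 48 h and 15.6% at 96 h. Of 12 catenins and links to actin, 1 was called at 48 h (CTNNA2, α-catenin of neurons, at 11.7 against 5.04 CPM, higher under BMP4) and none at 96 h (edgeR, 7 with an unadjusted p under 0.05), with list medians of 0.16 and 0.03 in log2. CTNNB1, β-catenin, was at 543 ± 10.5 CPM in untreated cells and at 96 h at 758 CPM (Activin+BMP4) and 759.8 CPM (BMP4), a log2 difference of 0.00 ± 0.0268 (adjusted p = 0.909). None of the 8 proteases that cut cadherins or their precursors was called at 48 h or 96 h, though 6 had an unadjusted edgeR p under 0.05 at each time and were short of 2-fold or of the adjusted threshold. Of the 4 nectins, adhesion proteins of the same junctions, NECTIN4 alone was called at 48 h and 96 h, higher under BMP4, at 8.25 against 0.445 CPM and 2.78 against 0.316 CPM. Of 7 desmosome genes PKP2 was higher under BMP4 at 48 h (101 against 37.4 CPM) and DSC3 at 96 h (10.8 against 2.35 CPM), and DSG3, named after its values were seen, was lower at 48 h at under 0.3 CPM.

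Other classical cadherins were measured too. Of 9 in the list 8 passed the filter, of which 2 were called higher and 2 lower under BMP4 at 48 h, and 4 higher and 2 lower at 96 h, beside 9.25% and 15.6% of all genes. CDH7 was higher at both times, at 6.54 against 1.08 CPM at 48 h and 3.96 against 0.494 CPM at 96 h. CDH12 was lower at both, and at 96 h of Activin+BMP4 it reached 7.74 CPM against 0.601 CPM under BMP4 (log2 difference -3.69 ± 0.416, adjusted p = 5.86e-10). CDH9 was higher at both times and CDH20 lower at 48 h and higher at 96 h. CDH22 was higher and CDH15 lower at 96 h, the latter with overlapping libraries. CDH9, CDH15, CDH20 and CDH22 were under 4 CPM in these groups. CDH24 had the highest CPM of the list at both times, at 23.0 CPM at 48 h and 36.2 CPM at 96 h of BMP4 against 25.2 and 19.9 CPM with Activin+BMP4, and was called at neither. These 5 genes were named after their values were seen.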

How the data were processed

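RNA-seq counts per gene were deposited by the authors for 51 libraries, and the values are whole-number counts without normalization. Per the submitters' processing notes, cutadapt 1.5, STAR 2.5.2a, RSEM 1.3.0 and GRCh38 were used; their roles, the annotation release, the handling of strand and whether the counts are reads or rounded estimates are not given in the sources used here. Per the labels' protocols the kit was KAPA RNA HyperPrep on column-purified total RNA. Groups and repeat numbers came from the labels.

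Of 58051 genes, 19603 passed filterByExpr (minimum count 10, minimum total 15) and held 99.9458% of the counts. All 17 groups were fitted together in edgeR 4.0.16 (R 4.3.3) with TMM factors (0.966 to 1.03) and its quasi-likelihood test, with Benjamini-Hochberg adjustment over all genes tested in each comparison. The CDH1 to CDH2 ratio was tested as log2 of the counts plus 0.5 with an exact two-sided permutation test. Likeness between genes is Pearson's r of log2(CPM + 0.5) over group means. The tests were checked on simulated counts. DESeq2 1.42.0, other scaling, other filters, a replicate block and leaving out libraries were tried as alternatives. The members and lists were chosen with earlier results of these data known. All 9 members could be named in any comparison. From each of the 7 companion lists, up to 4 genes were named that were called at 48 h or 96 h with the higher treatment at 5 CPM or more and had the largest differences, with CTNNB1, SNAI1, SNAI2, ZEB1, ZEB2 and ESRP1 in any case, and for each member with at least 10 CPM the 3 genes of most like pattern. One list of cell type markers is not reported here.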

Additional observations from a re-analysis of the deposited data

Results flagged for a closer look

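The change from 24 h to 96 h differed between the treatments for CDH6 and CDH11 by the test of the difference itself (edgeR's interaction term). For CDH6 the difference was 3.34 ± 0.136 in log2 (SE, adjusted p = 1.83e-23), with all 3 BMP4 libraries at 96 h above all 3 Activin+BMP4 libraries and the opposite order at 24 h. For CDH11 it was 5.97 ± 0.136 (adjusted p = 3.04e-32), again with the order of all libraries turned between 24 h and 96 h.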

How the results depend on the processing

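The number of members called between the treatments moved mainly with the fold threshold. Without one it was 4 in place of 1 at 12 h, 6 in place of 2 at 24 h, 6 in place of 1 at 36 h, 9 in place of 4 at 48 h and 7 in place of 2 for the change from 24 h to 96 h. The number rose at 72 h and 96 h too, as CDH3 at both times and CDH1 at 96 h missed only the fold threshold. Over the 8 times, calls against untreated cells were then 40 in place of 15 with Activin+BMP4 and 41 in place of 20 with BMP4. The count at 12 h was 0 when only the 2 groups compared were fitted, and 0 to 1 when each library was left out. Of 1862 values for 130 member results, 1832 stayed on their side of the threshold, 27 lost the call and 3 gained it. Among values called in the main fit or in the alternative, 0 turned in direction. Where neither called a result, its direction was not compared. The losses in the comparisons described were those of CDH10 at 12 h and at 24 h of BMP4 against untreated cells, CDH5 at 48 h and at 72 h of BMP4 against untreated cells (adjusted p = 0.0536 to 0.0687 without 1 library), and CDH11 at 36 h of BMP4 against untreated cells, whose log2 value was 0.96 to 0.97 without replicate 1 of either group. Over all genes, the calls without a fold threshold were 2, 788, 1769, 5735, 5429, 8046, 7750 and 10660 in order of time, in place of 1, 99, 279, 787, 1094, 1814, 1888 and 3052. A stricter filter on low counts gave 517, 720, 1116, 1094 and 1808 from 24 h to 96 h, no filter gave 148 at 1 h and 243 at 6 h, and at 1 h DESeq2 gave 7 and a fit of only the compared groups 19. The repeat numbers did not pair the libraries: 1 of 24 same-numbered pairs had a correlation of deviations over 0.1 (range -0.20 to 0.19), and 14 of 48 libraries correlated best with their own number. A fit with the replicate number as a block left 130 of 130 member results on their side of the threshold, with 4 members called at 48 h and 4 at 96 h. CDH5, and CDH10 up to 36 h, rest on few counts, which limits what their tests can show. The cause of these changes was not tested.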
